A study of Mus musculus and Homo sapiens with 22 samples.

Results

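The cytoplasmic ribosomal protein genes encode the protein part of the ribosome that translates nuclear mRNAs. They were described here in N2A cells, a mouse neuroblastoma line, across 6 RNA-seq files. Members were the mouse symbols Rpl or Rps followed by a number and at most 1 letter, plus Rplp0, Rplp1, Rplp2 and Rpsa, that had at least 200 reads in each of the 6 files. Of the 74 symbols of this pattern, 67 met the read minimum, out of 22667 mouse genes in the files, of which 20759 had a symbol. They comprised 40 proteins of the large subunit and 27 of the small subunit. The members were thus chosen by their read counts, and their high levels are a description and no finding.

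The study asked how splicing factors control an exon network needed for neurogenesis. The knockdown files were siU2af65, transfected with an ON-TARGETplus siRNA pool against U2af65 (gene U2af2, a subunit of the factor that binds 3′ splice sites), and siPtbp1, transfected with a pool against Ptbp1, a repressor of neuronal exons. Their controls were 2 libraries of a non-targeting siRNA pool, lettered a and b in the labels. The siU2af65 library carries the letter a and the siPtbp1 library the letter b, and what the letters stand for is not given. All siRNA cells were harvested 48 hours after transfection. The shnSR100 file came from stable populations transduced with a lentiviral hairpin against the 3′ UTR of nSR100 (gene Srrm4, a neuronal splicing activator), and the shGFP file from cells with a hairpin against GFP. Hairpin cells were kept in 2 ug/mL puromycin, and each hairpin file combines 2 runs of different read lengths, so it has no replicate. Each of the other groups except the control siRNA had 1 library.

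The files held 68416863 reads in genes for siU2af65, 69957246 for siPtbp1, 77138004 for control siRNA b, 63952996 for control siRNA a, 73600542 for shnSR100 and 60220620 for shGFP. The targeted gene was at 37.8 CPM (counts scaled to depth by TMM, edgeR's trimmed mean of M-values) for U2af2 in siU2af65, against 222 in control b and 260 in control a. Ptbp1 was at 25.9 CPM in siPtbp1, against 418 in control b and 517 in control a. Srrm4 was at 18.3 CPM in shnSR100 and 87.6 CPM in shGFP. Of 9 neuroblast markers, 8 reached 1 RPKM in at least 1 file, and the list summed to between 634 and 901 RPKM. The summed RPKM was 2.44 to 5.13 for 5 glial markers, 0.64 to 3.85 for 5 immune markers, 0.41 to 12.2 for 5 fibroblast markers and 5.47 to 9.99 for 6 endothelial and epithelial markers, with Ptprc and Kdr listed at 0 in every file.

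Ribosomal proteins are made in near-equal numbers, because each ribosome holds 1 copy of most of them and several copies of the acidic stalk proteins. Their mRNAs are among the most abundant of growing cells, and the start of these mRNAs is typically a pyrimidine tract, the 5′ TOP motif, through which mTOR signalling controls their translation. In bulk RNA, fewer cells of a type and less RNA per cell cannot be told apart.

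A pyrimidine tract near the annotated start was found in most members searched, a feature that the choice did not use. The search was wider than the 5′ TOP motif, which stands at the very start of the mRNA. Of the 67 members, 49 had an entry in the RefSeq promoter table of GRCm38.p6, which gives 250 bases before and 50 after each annotated start. A tract, searched as C followed by 6 or more C or T, began within 30 bases of the start on the reading strand in 36 of 49 members, 73.5%, against 27.9% of all 27025 genes in the table. On the other strand the same search found 28.6% of members and 31.9% of all genes. In only a minority of the 36 did the first tract found begin within 3 bases of the start. Windows from 15 bases before to 15 bases after the start are shown for 6 such members, with the tract in capitals. They are Rpl18 at chr7:45718056-45718085 (plus strand), Rpl28 at chr7:4792950-4792979 (plus), Rpl38 at chr11:114668565-114668594 (plus), Rps6 at chr4:86857353-86857382 (minus), Rps10 at chr17:27635230-27635259 (minus) and Rps24 at chr14:24490663-24490692 (plus).
Rpl18: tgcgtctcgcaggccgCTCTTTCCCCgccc
Rpl28: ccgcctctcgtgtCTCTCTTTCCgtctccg
Rpl38: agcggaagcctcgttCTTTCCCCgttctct
Rps6: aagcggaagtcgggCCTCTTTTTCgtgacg
Rps10: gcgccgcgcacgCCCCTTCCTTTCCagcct
Rps24: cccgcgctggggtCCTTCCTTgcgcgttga
Other motifs were searched over all 300 bases on both strands. The letters CCGGAAG, a core bound by ETS factors, were present in 21 members, 42.9%, against 9.12% of all genes. AAGATGGC, a core of the YY1 motif, was in 3 members, 6.12%, against 2.88%, and TATAAA in 5 members, 10.2%, against 14.2%. These are matches of letters and were not tested as binding sites.

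The members took 3.25% of all reads in genes in siU2af65, 3.10% in siPtbp1, 2.74% in control siRNA b, 3.21% in control siRNA a, 3.0% in shnSR100 and 3.11% in shGFP. The exact binomial 95% interval of the lowest share was 2.74 to 2.75% and that of the share in control a 3.21 to 3.22%, so the control libraries differed by far more than counting error. Control b stood lowest of the 6 files. Rpl4, a protein of the wall of the exit tunnel, had the most reads of any member in every file, between 153306 in shGFP and 229098 in siU2af65. The 10 members with the most reads held between 46.4 and 50.3% of the members' reads in each file.

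RPKM, the authors' reads scaled to gene length and to total reads, could be given for 66 of the 67 members. Rps18, of the head of the small subunit, had 307 reads in siU2af65, 289 in siPtbp1, 261 in control b, 320 in control a, 389 in shnSR100 and 361 in shGFP, but no RPKM, and was not tested. The 66 others all passed the filter of a mean of at least 1 RPKM over the 4 siRNA libraries, as did 11237 genes in all. Their mean RPKM over the 6 files spanned 868-fold, from 4.89 for Rpl21 to 4238 for Rpl32, with 13 members under 100 RPKM, 23 between 100 and 1000 and 30 at 1000 or more. The median of the members was 843 RPKM, against 14.8 for all genes tested.

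The highest member was Rpl32, at 4144 RPKM in siU2af65, 3991 in siPtbp1, 3509 in control b, 4232 in control a, 4654 in shnSR100 and 4899 in shGFP. Rplp1, a stalk protein that helps recruit elongation factors, was at 2792 RPKM in siU2af65, 2491 in siPtbp1, 2168 in control b, 2471 in control a, 3879 in shnSR100 and 3899 in shGFP. Both hairpin files lay above all 4 siRNA libraries for both genes. Rps26, which lines the mRNA exit, Rpl4 and Rpl26 followed with mean levels of 2214, 2093 and 2060 RPKM. Their ranges over the 6 files overlapped one another, so their order is not fixed by these data.

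At the low end, Rpl21 was at 4.69 RPKM in siU2af65, 3.87 in siPtbp1, 3.60 in control b, 4.29 in control a, 7.05 in shnSR100 and 5.81 in shGFP. Rpl35 (16.5 RPKM on average), Rplp2 (19.7), Rpsa (34.5) and Rpl11 (37.3) came next, and the ranges of Rpl35 and Rplp2 overlapped, as did those of Rpsa and Rpl11. Rplp2 is the partner of Rplp1 in the stalk, and Rpsa is also known as the laminin receptor. The other stalk protein, Rplp0, which anchors Rplp1 and Rplp2 to the ribosome, was at 476 RPKM in siU2af65, 408 in siPtbp1, 354 in control b, 448 in control a, 573 in shnSR100 and 582 in shGFP. Proteins that sit side by side in the stalk thus had RPKM levels far apart in every file.

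The length behind an RPKM was recovered from the files as reads divided by RPKM and by the total. For each gene, every file was compared with the file that had the most reads, which was itself among those compared. The lengths were the same within 1% for 100% of 41556 pairs. Only values with at least 200 reads and a minimum RPKM were compared, which left out Rpl21. The median length over the members was 418 bases, against 2658 bases for all genes tested, and it ran from 20 bases for Rpl36 to 4778 bases for Rps15a. It was under 300 bases for 24 members, 36.4%, against 3.35% of the genes tested, and under 100 bases for 11 members. For Rpl3, a protein near the peptidyl transferase centre, it was 97 bases, which is shorter than the coding part of that mRNA. The RPKM of such a member rests on a small stretch of its mRNA, and levels of different members are therefore uncertain. Many ribosomal protein genes have near-identical processed copies in the genome, and how the authors' counting treated shared reads is not given in the sources used here.

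**Figure D1:**
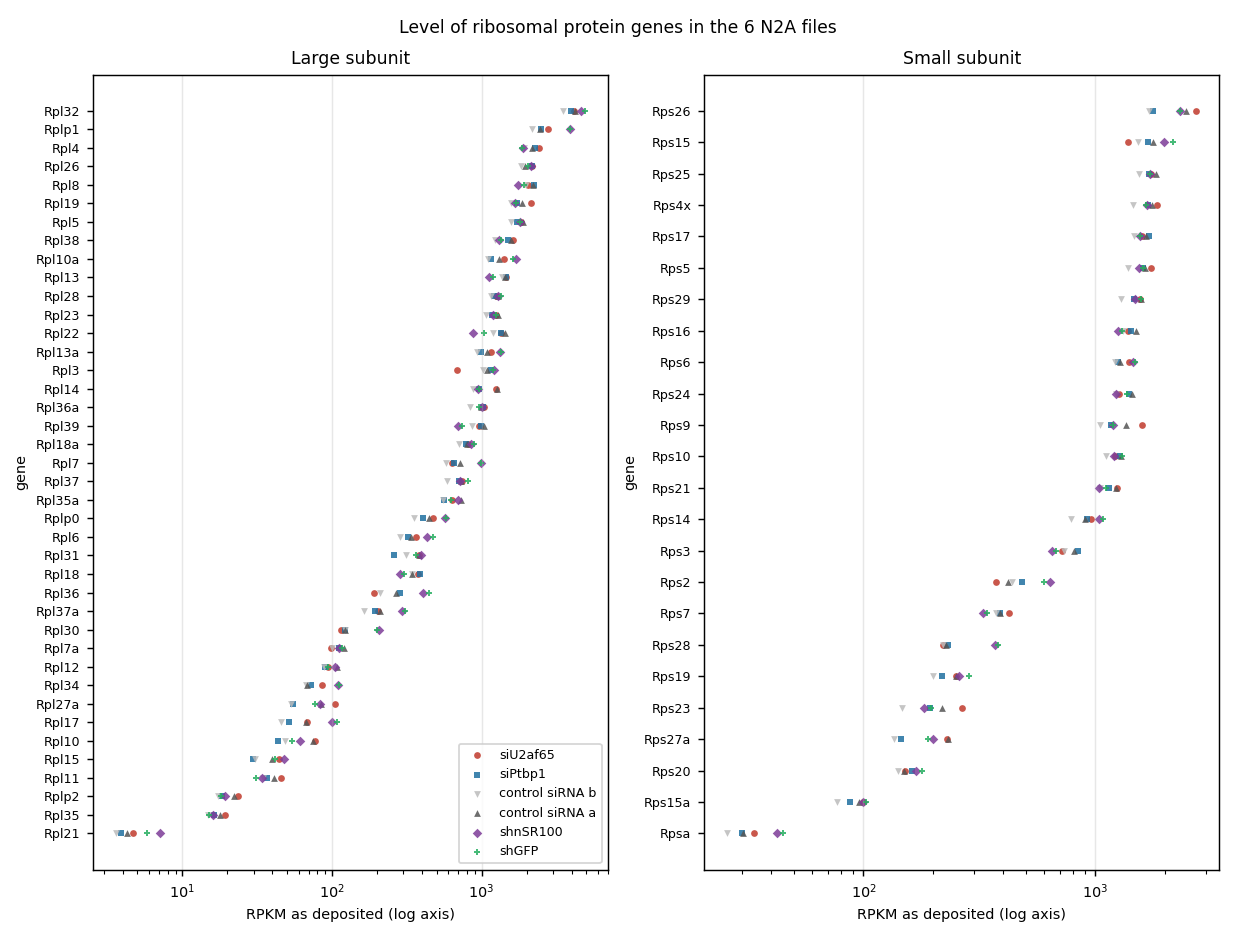
RPKM of 64 of the 66 members (log axis) in siU2af65, siPtbp1, control siRNA b, control siRNA a, shnSR100 and shGFP, 1 point per file, large subunit on the left and small subunit on the right, ordered by mean level. Levels run from 4.89 for Rpl21 to 4238 for Rpl32 on average, and the light triangles of control b lie to the left of those of control a for nearly every gene.

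**Figure D2:**
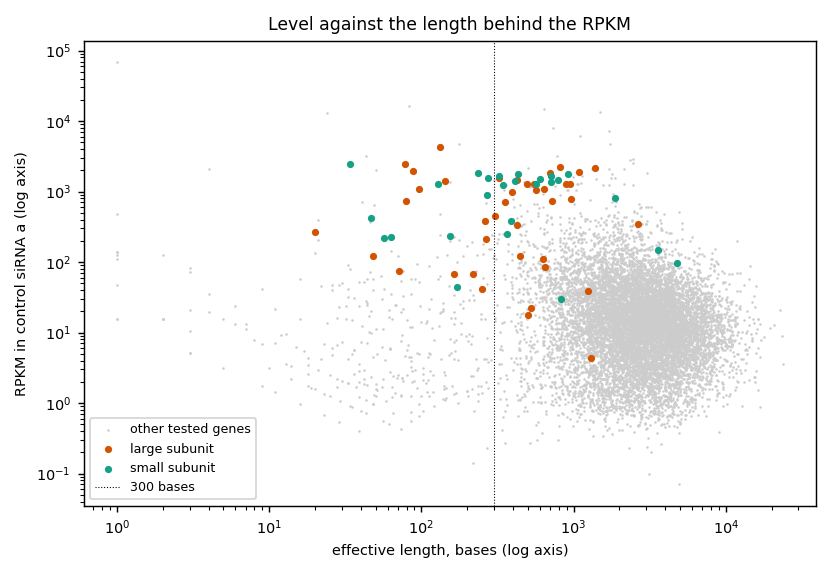
RPKM in control siRNA a (log axis) against the effective length in bases behind the RPKM (log axis), with members in colour and a dotted line at 300 bases. Drawn are the 11230 of 11237 genes tested that are above 0 RPKM in that file. Of the 66 members 62 lie above the upper quartile of all genes, 30.4 RPKM in that file, with Rpl21 the lowest, and 36.4% of them have a length under 300 bases.

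Just inside the read minimum were Rpl10 (lowest count 216), Rps18 (261), Rpl36 (263) and Rpl7a (324). Just outside were Rpl27 (lowest count 196) and Rpl29 (183), and farther out Rps12 (155), Rpl9 (127), Rpl23a (49), Rps13 (46) and Rps27 (0). All of these excluded symbols had an effective length of 139 bases or less. Rps27 was listed with at most 2 reads, and the symbol Rps27rt, a close copy, is a separate gene in the files.

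Of the comparisons made, the members' median was farthest from 0 not in a knockdown but between the 2 control siRNA libraries. After TMM scaling, all 66 members were lower in control b than in control a, against 45.2% of all genes tested. The median log2 difference, control b minus control a, was -0.37 for the members, with quartiles of -0.44 and -0.31, and 0.04 for all genes. For 4838 other genes at least as highly expressed as the lower quartile of the members it was -0.07. With library totals in place of TMM the median of all genes moved up by 0.12, to 0.16, and that of the members was -0.25, with 3 members (Rpl18, Rpl30 and Rps2) above 0. For 65 of the 66 members the 95% counting interval of the TMM-scaled difference lay wholly below 0, with Rps2, which lies at the mRNA entry, as the exception. The same count was not made for all genes, and these intervals are narrow wherever reads are many. No test is possible for a pair of single libraries, and counting error does not include the spread between cultures.

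Rps27a had the largest gap. This gene encodes a fusion of ubiquitin with a small-subunit protein, and it had 20.5 CPM in control b and 38.3 CPM in control a, a log2 difference of -0.90. Its level was 33.7 CPM in siU2af65 and 22.2 CPM in siPtbp1. The library that shares the letter a was thus the closer one to control a, and the library that shares the letter b the closer one to control b. Rpl27a followed with 34.1 CPM in control b and 58.7 CPM in control a, a difference of -0.78, and Rpl10, an X-linked protein that joins the large subunit late in its assembly, with 3.41 CPM in control b and 5.69 CPM in control a, a difference of -0.74. Rpl10 rests on 267 reads in control b and 340 in control a. The smallest gaps were those of Rps2 (-0.07), Rpl30 (-0.12) and Rpl18 (-0.12).

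A difference of 0.5 or more on the log2(RPKM + 1) scale was found in 7 members, all lower in control b, namely Rpl10, Rpl14, Rpl17, Rpl27a, Rps23, Rps26 and Rps27a. That is 10.6% of members, against 3.36% of all genes tested. None was higher in control b by as much, against 12.8% of all genes. The median gap was -0.39 over 40 large-subunit members and -0.35 over 26 small-subunit members. Members with a pyrimidine tract that begins within 30 bases of the start had a median of -0.37 (35 genes) and those without one -0.40 (13 genes). The gap was -0.39 over 24 members with an effective length under 300 bases and -0.37 over the 42 others.

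**Figure D3:**
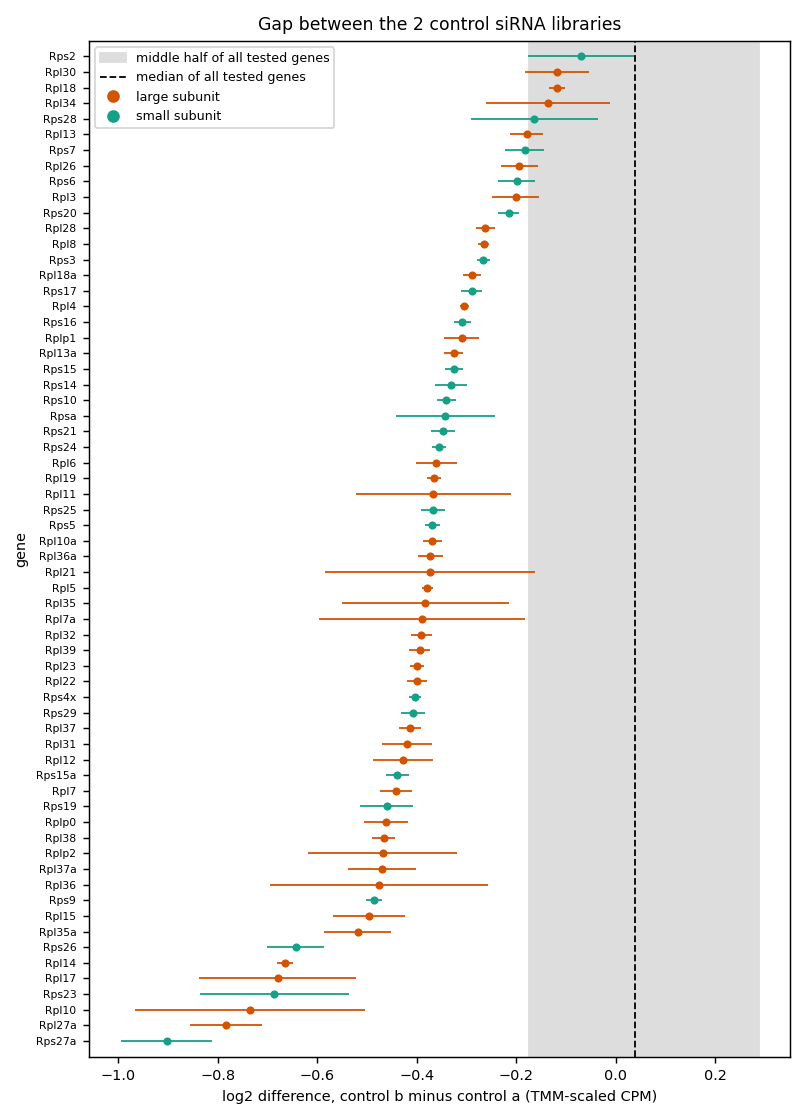
Log2 difference of TMM-scaled CPM, control siRNA b minus control siRNA a, for 64 of the 66 members, 1 point per gene with its 95% counting interval as a bar. The grey band is the range between the quartiles of all 11237 genes and the dashed line their median of 0.04, and every plotted member lies to the left of 0, from -0.07 for Rps2 to -0.90 for Rps27a.

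The order of all 4 siRNA libraries varied among the members. In 41 members, 62.1%, both libraries lettered a (siU2af65 and control a) were above both libraries lettered b (siPtbp1 and control b), against 15.1% of all genes tested. Every member was already lower in control b than in control a, and of the 5076 genes tested with that order of the controls, 33.5% had both a libraries above both b libraries. In the other 25 members siU2af65 was below siPtbp1. Examples of the 41 are Rps9, which lies at the mRNA entry, with 1074 CPM in siU2af65, 819 in siPtbp1, 728 in control b and 1019 in control a, and Rpl14, with 1062 CPM in siU2af65, 847 in siPtbp1, 764 in control b and 1210 in control a. Since each knockdown has only 1 letter, a difference between the knockdowns and the letter cannot be told apart.

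No member passed the test in siU2af65 cells against the 2 control siRNA libraries. edgeR's quasi-likelihood test, fitted on all 11237 genes of the 4 siRNA libraries, called 0 members higher at a Benjamini-Hochberg adjusted p under 0.05, against 1.82% of all genes, and 0 lower, against 3.42%. One member, Rpl3, had an unadjusted p under 0.05, against 23.5% of all genes. DESeq2 called 0 members, against 3.02% of all genes higher and 6.28% lower. limma on log2(RPKM + 1) called 1, Rpl27a, higher, against 5.83% of all genes, and 0 lower, against 5.61%. Over all genes the edgeR calls were 205 higher and 384 lower, and with library totals 581 higher and 581 lower. The median log2 difference of the members was 0.06, with 40 above and 26 below 0, beside -0.00 for all genes. It was 0.26 without control a and -0.14 without control b, so its sign depended on which control was used. It was 0.16 with library totals and -0.01 with shGFP added to the controls.

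Rpl3 had the lowest log2 difference of the members in siU2af65. It was at 683 RPKM in siU2af65, 1151 in siPtbp1, 1022 in control b, 1080 in control a, 1216 in shnSR100 and 1199 in shGFP. Of the 6 files, siU2af65 alone was under 1000 RPKM, with 4534 reads against 7649 in control b and 6702 in control a. The log2 difference was -0.73 (SE 0.22) with an adjusted p of 0.0857 in edgeR's quasi-likelihood test, and over the alternatives it ran from -0.79 to -0.62 with an adjusted p between 0.0481 and 0.427. It passed the threshold under 1 of them, the fit without a filter on low values. Rpl3 is known from mammalian cells to regulate the splicing of its own transcript. The reads behind these values fall on an effective length of 97 bases, so they do not cover the whole mRNA.

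Rpl36 followed at 192 RPKM in siU2af65, against 210 in control b and 269 in control a, a log2 difference of -0.43 (SE 0.47) on an effective length of 20 bases. Rps15, of the head of the small subunit, was at 1384 RPKM in siU2af65, against 1532 in control b and 1765 in control a, a log2 difference of -0.36 (SE 0.31). Neither difference passed the edgeR test. On the upper side, Rpl27a was at 104 RPKM in siU2af65, against 53.4 in control b and 84.5 in control a. Its log2 difference was 0.48 (SE 0.30) with an edgeR adjusted p of 0.373, and 0.63 with a limma adjusted p of 0.0273 on log2(RPKM + 1), and the adjusted p ran from 0.0273 to 0.706 over the alternatives. Rps23, a protein of the decoding centre, had 14.6 CPM in siU2af65, against 8.26 in control b and 13.3 in control a, and Rps9 had 1074 CPM, against 728 and 1019 in controls b and a. These 3 genes lay above both controls in siU2af65, and every member was lower in control b than in control a. Control a was therefore bound to be the nearer control for them.

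Against the control of the same letter, TMM-scaled siU2af65 was below control a for 57 of 66 members, against 49.2% of all genes, with a median of -0.14. This count depended on the scaling, with TMM factors of 1.04 for siU2af65 and 0.934 for control a. On the log2(RPKM + 1) scale, which has no such factor, members lay on both sides of 0. Rpl10a (0.11), Rpl15 (0.16) and Rpl18 (0.13) were above control a there, and Rpl12 (-0.20) and Rps15 (-0.35) below it. By 0.5 or more on the log2(RPKM + 1) scale 1 member, Rpl3, was lower, against 12.2% of all genes, and none was higher, against 25.9%. The siU2af65 library was above both controls for 9 members, 13.6%, against 40.6% of all genes (Rpl4, Rpl27a, Rps9 and Rps23 among them). It was below both for another 9, against 39.5% (Rpl3, Rpl7a, Rpl8, Rpl30, Rpl36, Rps2, Rps3, Rps15 and Rps28). In the remaining 48 members it lay between the controls, whose own gap is wide for these genes.

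No member passed the test in siPtbp1 cells either, in a comparison that uses the same 2 control libraries. edgeR's quasi-likelihood test called 0 members higher, against 0% of all genes, and 0 lower, against 0.0267%, or 3 genes. No member had an unadjusted p under 0.05, against 4.28% of all genes. DESeq2 and limma called 0 members, against 0.178% and 0.881% of all genes in either direction. The median log2 difference of the members was -0.03, with 26 above and 40 below 0, beside 0.01 for all genes, and it was 0.03 with library totals. It was 0.17 without control a and -0.19 without control b. These medians cannot be given a direction.

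The lowest member in siPtbp1 was Rpl10, at 3.06 CPM in siPtbp1, against 3.41 in control b and 5.69 in control a, a log2 difference of -0.57 (SE 0.50). Rpl31, which lies beside the exit of the nascent chain, was at 66.9 CPM in siPtbp1, against 79.9 in control b and 107 in control a, a difference of -0.48 (SE 0.24). Rps27a was at 22.2 CPM in siPtbp1, against 20.5 in control b and 38.3 in control a, a difference of -0.40 (SE 0.37). The first 2 lay below both controls and Rps27a between them. On the positive side were Rpl36 (0.19) and Rpl26 (0.15), and with shGFP added to the controls Rpl36 changed sign, to -0.12.

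Against control b alone, siPtbp1 was below the control for 4 members (Rpl10, Rpl15, Rpl30 and Rpl31), against 49.8% of all genes, and above it for 62, with a median of 0.17. By 0.5 or more no member was higher, against 1.94% of all genes, or lower, against 4.12%. The siPtbp1 library was above both controls for 3 members (Rpl18, Rpl26 and Rps2), against 34.8% of all genes, and below both for 4 (again Rpl10, Rpl15, Rpl30 and Rpl31), against 28.9%. It lay between the controls for 59 members.

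**Figure D4:**
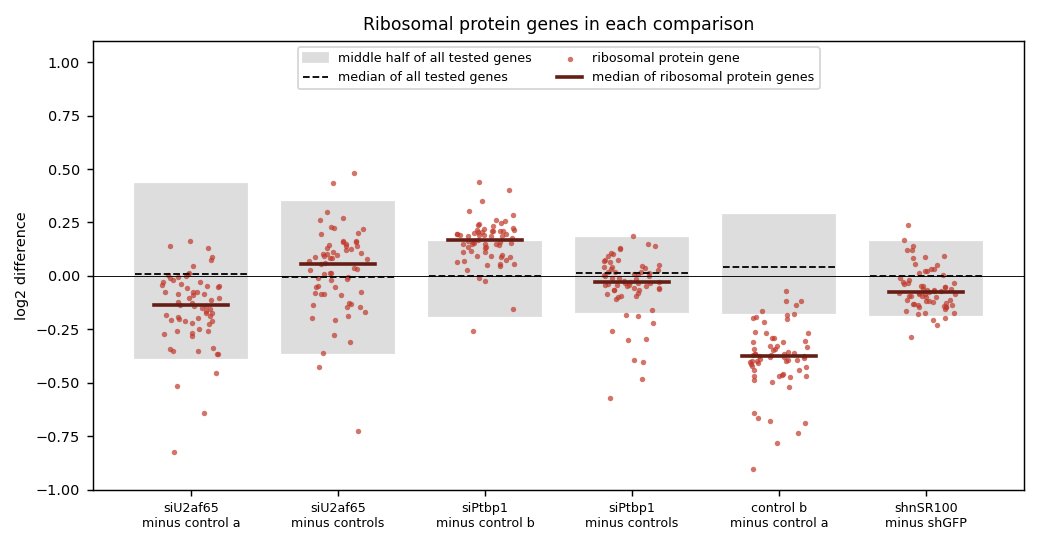
Log2 differences of the 66 members, 1 point per gene, in 6 comparisons: siU2af65 minus control a, siU2af65 minus both controls, siPtbp1 minus control b, siPtbp1 minus both controls, control b minus control a, and shnSR100 minus shGFP. Dark bars are member medians, grey boxes the range between the quartiles of all genes tested and dashed lines their medians, and the member median is farthest from that of all genes, at -0.37 against 0.04, for control b minus control a.

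The hairpin comparison has 1 file on each side and no test. The member median of the log2 difference, shnSR100 minus shGFP, was -0.08, beside 0.00 for all genes. It was below 0 for 50 of 66 members, against 49.9% of all genes, and with library totals the median was -0.04, with 21 members above 0. No member differed by 0.5 or more on the log2(RPKM + 1) scale, against 4.35% of all genes higher and 5.07% lower. Of the 26 small-subunit members 24 were lower in shnSR100, with Rps2 and Rps27a as the exceptions. By their 95% counting intervals 42 members were lower and 7 higher, a count that was not made for all genes. Such intervals are narrow for genes with many reads, so these counts are not shown to be a trait of the members. All of these differences were smaller than 0.3 on the log2 scale, and the median control gap of -0.37 in the siRNA libraries was larger than any of them.

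Rpl22, an RNA-binding protein with a close paralog in Rpl22l1, was the lowest, at 871 RPKM in shnSR100 and 1032 RPKM in shGFP, a log2 difference of -0.28. Rpl37 was at 717 RPKM in shnSR100 and 806 RPKM in shGFP (-0.21). The most positive were Rpl21 (0.24), at 7.05 RPKM in shnSR100 and 5.81 RPKM in shGFP, Rpl15 (0.17) and Rpl10 (0.14). These last 3 are low in RPKM, and Rpl10 rests on 318 reads in shnSR100 and 230 in shGFP.

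Among members known for a role in signalling, sex linkage or splicing, none passed the edgeR test in either knockdown. Rps6, the small-subunit protein phosphorylated by S6 kinase, was at 1392 RPKM in siU2af65, 1255 in siPtbp1, 1214 in control b and 1281 in control a, with log2 differences of 0.05 (SE 0.22) for siU2af65 and -0.05 (SE 0.22) for siPtbp1. Rps4x, which is X-linked, was at 1836 RPKM in siU2af65, 1693 in siPtbp1, 1448 in control b and 1762 in control a. Rps24, whose last exons are alternatively spliced, was at 1261 RPKM in siU2af65, 1395 in siPtbp1, 1224 in control b and 1440 in control a. Rpl12, which binds at the base of the stalk and is known to regulate its own splicing, was at 94.5 RPKM in siU2af65, 90.1 in siPtbp1, 87.9 in control b and 109 in control a. In RPKM siU2af65 was above both controls for Rps6 and Rps4x and between them for Rps24 and Rpl12. The siPtbp1 library was between them in all 4 genes. In TMM-scaled CPM both knockdowns lay between the controls in all 4. Gene totals do not show which isoform was made.

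Other genes of ribosome synthesis and translation were taken from lists by function, chosen with earlier results of these data known. In siPtbp1, edgeR's quasi-likelihood test, DESeq2 and limma called 0 genes of any of these lists, and 2 had an unadjusted p under 0.05 in edgeR, against 4.28% of all genes. In siU2af65, edgeR called 0 of 10 ribosomal proteins outside the symbol pattern, 16 elongation and termination factors, 30 initiation factors, 19 genes of growth control and 5 snoRNA host genes. At an unadjusted p under 0.05 in edgeR these lists had 0, 3, 2, 4 and 1 genes, against 23.5% of all genes. That is 10 of 80 list entries, with some genes on more than 1 list. DESeq2 called 0, 2, 0, 1 and 0 of them, and limma on log2(RPKM + 1) called 3, 3, 2, 4 and 0. Over all genes DESeq2 called 3.02% higher and 6.28% lower, and limma 5.83% higher and 5.61% lower. Rps27rt was among the 3 ribosomal proteins called by limma. The shortest effective length in that list was 2.00 bases and its lowest RPKM in siU2af65 was 7.31, so a call there may rest on few reads. Of 44 ribosome assembly factors, 1 rose in siU2af65, against 1.82% of all genes. It was Nop14, which takes part in small-subunit maturation. DESeq2 called 4 of these factors higher, against 3.02% of all genes, and limma 9, against 5.83%. Nop14 was at 89.9 RPKM in siU2af65, against 40.0 in control b and 41.6 in control a, 1.04 higher on the log2 scale (edgeR adjusted p 0.0258, SE 0.20). Of 15 genes of RNA polymerase I and its factors, which make the precursor of the large rRNAs, 1 rose, again against 1.82%, namely Cd3eap, a polymerase I subunit, by 1.23 (edgeR adjusted p 0.0422, SE 0.29). DESeq2 called 2 of them higher, against 3.02% of all genes, and limma 5, against 5.83%. edgeR called 5 higher with library totals, against 5.17%, and 0 at a mean of at least 5 RPKM, against 0.829%. Of 77 mitochondrial ribosomal proteins, which serve a separate ribosome, 1 rose and 3 fell in siU2af65, against 1.82% and 3.42% of all genes. DESeq2 called 1 higher and 4 lower, against 3.02% and 6.28% of all genes. limma called 8 higher and 4 lower, against 5.83% and 5.61%. The balance of directions thus depended on the tool, here as over all genes. Mrps2 rose by 1.40 (edgeR adjusted p 0.0173), and Mrpl37 fell by 0.99, Mrpl38 by 0.88 and Mrps9 by 0.90 (edgeR adjusted p 0.0443, 0.0479 and 0.0437). With shGFP added to the controls edgeR called 0 genes of these lists and 0 over all genes. Without the members in the scaling it called 270 genes over all in siU2af65, and only Nop14 and Mrps2 of those named above. Cdkn1a (-1.46), an inhibitor of the cell cycle, and Pabpc1 (-1.12), the main poly(A)-binding protein, did not pass the main edgeR test. Both were called lower by DESeq2, by limma, and by edgeR with library totals or without a filter on low values.

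The median control gap of these lists was on either side of 0. As control b minus control a, it was -0.33 for the elongation and termination factors (13 of 16 below 0), -0.22 for the ribosomal proteins outside the pattern (8 of 10) and -0.16 for the initiation factors (24 of 30), while it was 0.14 for the assembly factors (14 of 44 below 0), 0.21 for the polymerase I genes (2 of 15) and 0.05 for the mitochondrial ribosomal proteins (34 of 77). For the snoRNA host genes it was -0.29 (3 of 5 below 0) and for the growth control genes -0.04 (10 of 19). Eef1a1, the elongation factor that brings aminoacyl-tRNA to the ribosome, was at 6235 RPKM in control b and 7327 in control a. Rpl7l1, a relative of Rpl7, was at 32.5 in control b and 17.6 in control a. Rrp12, an assembly factor, had a gap of 1.05, and Npm1, the nucleolar chaperone, one of -0.62. These differences rest on 1 pair of libraries.

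**Figure D5:**
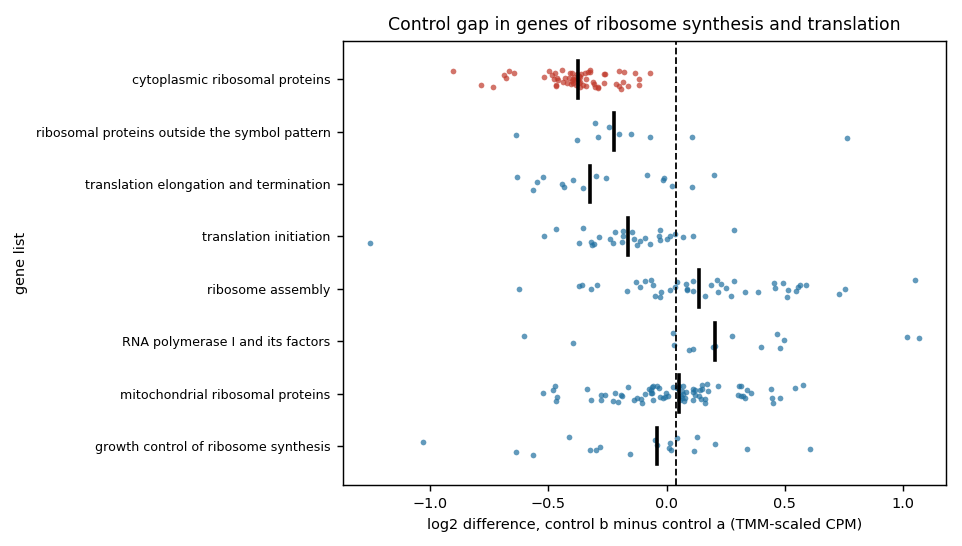
Log2 difference of TMM-scaled CPM, control siRNA b minus control siRNA a, for the members and 7 other gene lists, 1 point per gene with a black bar at each median and a dashed line at the median of all genes tested (0.04). The members' bar stands at -0.37 and that of the elongation and termination factors at -0.33, while the bars of the assembly factors (0.14) and of the polymerase I genes (0.21) lie to the right of the line. The snoRNA host genes are not drawn.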

How the data were processed

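Per the labels' protocols, RNA came from TRI Reagent extraction and went into standard Illumina mRNA-Seq libraries. The authors deposited a read count and an RPKM per Ensembl gene. Per the submitters' processing notes, the tools were Bowtie and bedtools 2.17.0 and the builds mm9 and hg19, without their roles. The rule for counting reads, the use of strand and the annotation are not given in the sources used here. No column of other samples was used, and the immunoprecipitation and 293T samples were not analysed here.

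The deposited counts of the 4 siRNA libraries were fitted in edgeR 4.0.16 (R 4.3.3), scaled by TMM, over genes whose mean RPKM was at least 1. The control pair gives 1 residual degree of freedom, moderated with 8.65 prior degrees of freedom, at a common dispersion of 0.0375. Separate cultures of the control libraries are not stated, so a p-value here measures the spread between these samples, which may be technical. SEs are approximate, taken from each fold change and the root of its F statistic. DESeq2 1.42.0 and limma 3.58.1 were alternatives, with pseudocounts of 1 and 0.1 RPKM. A difference was counted at 0.5 on the log2(RPKM + 1) scale, which understates changes of low genes. Scripts were tested on simulated data. Counting intervals are at 95% and cover counting error only.

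Promoter windows come from RefSeq (GRCm38.p6) and were not mixed with the files' build. Members, lists and tests were chosen with earlier results of these data known. Named members were the 5 highest and 5 lowest by RPKM, the 3 most extreme in each direction per difference, those next to the read minimum and a set of textbook genes, of which Rpl41 was not analysed here, and a few genes that this rule names are not reported here. In the other lists the called genes and the most extreme ones were named.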

Additional observations from a re-analysis of the deposited data

How the results depend on the processing

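Over all genes, edgeR called 589 genes in siU2af65 and 3 in siPtbp1. For siU2af65 the count was 1162 with library totals, 270 with scaling factors computed without the members, 1045 with DESeq2, 1649 without a filter on low values, 257 at a mean of at least 5 RPKM, 1285 and 1261 with limma at pseudocounts of 1 and 0.1, and 0 with shGFP added to the controls. For siPtbp1 it was 86, 1, 20, 99, 1, 99, 106 and 0 under the same settings. With shGFP added, 1162 genes in siU2af65 and 167 in siPtbp1 had an unadjusted p under 0.05 in edgeR. Among members the count in siU2af65 was 0 in edgeR and DESeq2, but 1 without a filter (Rpl3, lower) and 1 with limma at either pseudocount (Rpl27a, higher). Rpl36 in siPtbp1 changed sign with shGFP added, to -0.12. The cause of these changes was not tested. Of 88 values computed for named members under an alternative, 84 kept their direction and side of the threshold. The members' median changed sign in 2 of 10 alternatives for siU2af65 and in 3 of 10 for siPtbp1. These 10 leave out the fits without a filter, at a mean of at least 5 RPKM and with limma at a pseudocount of 0.1. In that order, the median was -0.01, 0.07 and 0.16 for siU2af65 and -0.05, -0.05 and 0.04 for siPtbp1. With 1 control left out, the members' median ran from -0.14 to 0.26 for siU2af65 and from -0.19 to 0.17 for siPtbp1, as values with no test. No paired analysis was possible because siU2af65 shares a letter with control a alone and siPtbp1 with control b alone, and the numbered hairpin runs are pooled into 1 file per group. With 1 library per knockdown, members that lie within the wide control gap have no resolved difference at any depth.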

Other observations

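No comparison of the study pairs the hairpin with the siRNA files. With library totals, the log2 difference of shGFP minus the mean of the 2 control siRNA libraries was 0.97 for Rpl17, 0.91 for Rpl36, 0.76 for Rps28 and 0.75 for Rplp1, and -0.34 for Rpl39 and Rpl22. Rpl17 was at 108 RPKM in shGFP, against 45.5 in control siRNA b and 67.1 in control siRNA a, and shnSR100 was at 101 RPKM, next to shGFP. The 24 members with an effective length under 300 bases had a median difference of 0.18, with 7 of them, 29.2%, higher by 0.5 or more, and the 42 others a median of 0.08, with 6, 14.3%, higher by as much. For other genes the median was -0.03 under 300 bases and 0.16 at 300 bases or more, with 28.1% and 26.3% higher by 0.5 or more. The hairpin files combine runs of different read lengths and the cells were kept in puromycin, and the part of either in these values was not tested.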
